A study of Mus musculus with 2 samples.

Results

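Rostral Hox genes are those of paralog groups 1 to 3, and 7 of them were examined: Hoxb1 and Hoxd1 of group 1, Hoxa2 and Hoxb2 of group 2, and Hoxa3, Hoxb3 and Hoxd3 of group 3. They were chosen by name from the gene rows of both count tables, which hold 23912 genes. Hoxb1 has no row in these tables and was not analysed here. Hoxd1 has a row with no counts, and the other 5 genes were detected in both libraries.

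Hox genes encode homeodomain transcription factors and lie in clusters whose gene order follows the body axis. Genes with low group numbers are expressed up to segments of the embryonic hindbrain, where they act with Pbx and Meis cofactors to set segment identity, and genes with higher numbers begin further caudally. Retinoic acid first switches them on, and many adult hindbrain neurons keep the combination that marks the level where they arose.

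The nuclei came from adult TRAP2 mice aged 8 to 12 weeks, a line in which neurons active in a chosen time window can be marked. AAV-retro-H2B-GFP had been placed in the lumbar cord, so that neurons with axons there carried a green nuclear protein. The treatments were named SNI with brush and hot water bath, and both shared strain, virus and age. Hindbrain tissue about -7.3 to -5.2 mm from bregma was pooled within a treatment, nuclei were sorted, and 1 droplet library was made per treatment with the 10x 3' v3 kit. How many animals were pooled is not stated in the labels. With 1 library per treatment, the treatment and the library cannot be told apart, nuclei are not replicates, and no p-value was computed. All intervals are exact 95% intervals and cover counting error only.

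From SNI with brush there were 288 nuclei with 11298755 UMIs in all, and from hot water bath 425 nuclei with 16344606 UMIs. A UMI is a molecular tag that counts 1 captured transcript. Nuclei ranged between 9164 and 142954 UMIs in the SNI with brush library and between 10878 and 96057 in the hot water bath library. The libraries shared 0 cell barcodes. In the SNI with brush library, 17 nuclei held more liver-gene than neuron-gene UMIs, against 0 in the hot water bath library, and they were set aside with 2 and 3 called doublets. The remaining 269 and 422 nuclei are called neuronal, and 8 of 8 neuron markers were detected in both libraries, at 3745 and 2936 CPM, the summed UMIs per 1000000 UMIs of those nuclei. Glial and endothelial lists were all detected, at 7.16 to 176 CPM in the SNI with brush library and 3.03 to 75.6 CPM in the hot water bath library. The liver list still reached 36.2 CPM in the SNI with brush neuronal nuclei, against 1.55 CPM in the hot water bath nuclei, where Alb, Apob, Fgb and Serpina1a were at 0. The median mitochondrial share was 0.274% and 0.0705%. Whether any of these differences had a part in the Hox values was not tested, apart from the alternatives given beside them.

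Most nuclei of the SNI with brush library carried a rostral Hox transcript. A UMI of any member was found in 182 of 269 neuronal nuclei (67.7%, interval 61.7 to 73.2%) of the SNI with brush library and in 215 of 422 (50.9%, 46.1 to 55.8%) of the hot water bath library. Detection depends on depth, so every nucleus was also thinned to 9000 UMIs, and the expected share over all such draws is given. Thinned, the shares were 39.3% (33.4 to 45.4%) and 21.7% (17.9 to 26.0%). No neuronal nucleus was too shallow for this. Restricted to the 191 and 402 nuclei with at most 0.5% mitochondrial UMIs, the thinned shares were 36.05% and 21.0%.

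The transcripts were sparse in each nucleus. The SNI with brush nuclei held a median of 2 and a maximum of 20 UMIs of the summed members, and 53 nuclei held at least 5. The hot water bath nuclei held a median of 1 and a maximum of 12, and 24 nuclei held at least 5. Several members were often found together: 43.5% of SNI with brush nuclei (37.5 to 49.6%) and 19.9% of hot water bath nuclei (16.2 to 24.04%) carried at least 2 members. As a gauge of free RNA in the droplets, 4 of the 17 liver-gene nuclei (23.5%, 6.81 to 49.9%) held a member's UMI at a median depth of 22086 UMIs, and their thinned share was 13.4% (2.01 to 38.4%). The neuronal nuclei of that library had a median of 33238 UMIs. The hot water bath library had 0 such nuclei, so its free RNA was not gauged in this way.

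Of group 1, Hoxd1 was not detectable at this depth. Hoxd1 (ENSMUSG00000042448, mm10 chr2:74762980-74765142, plus strand), which in mice is known for its role in pain-sensing neurons of the dorsal root ganglia, had 0 UMIs in both libraries. This allows a UMI in up to 1.12% of SNI with brush nuclei and 0.711% of hot water bath nuclei, a limit on nuclei with a UMI and not on nuclei that express the gene. Hoxb1 (chr11:96365752-96368256), which gives the facial motor neuron segment its identity, has no row, as stated above.

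Both group 2 genes were higher with SNI with brush, Hoxb2 with the higher ratio. Hoxa2 (ENSMUSG00000014704, chr6:52162417-52164831, minus strand) has the most rostral limit of the Hox genes in the embryo. It had 28 UMIs in the SNI with brush library and 20 in the hot water bath library, which is 2.60 CPM (1.73 to 3.76) and 1.24 CPM (0.756 to 1.91). Hoxb2 (ENSMUSG00000075588, chr11:96350525-96354012, plus strand), a target of Hoxb1 and of the segment regulator Egr2 in the embryo, had 125 and 58 UMIs, or 11.6 CPM (9.67 to 13.8) and 3.59 CPM (2.73 to 4.64). Its thinned share of nuclei was 11.8% (8.17 to 16.2%) in the SNI with brush library and 3.09% (1.66 to 5.22%) in the hot water bath library. How many of all genes had thinned intervals as far apart was not computed. Hoxb2 had a log2 ratio, SNI with brush to hot water bath, of 1.69 (1.23 to 2.17) and Hoxa2 one of 1.06 (0.19 to 1.98). Among all genes of like span, 53.5% were at least 1.5-fold higher with SNI with brush. Their median log2 ratio, 0.64, lies inside the Hoxa2 interval. Hoxa2 moved to 1.82 when nuclei rich in Gcg transcripts, described below, were left out.

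In group 3, Hoxb3 had the highest level per exonic kilobase and Hoxd3 differed least between the libraries. Hoxa3 (ENSMUSG00000079560, chr6:52169062-52213336, minus strand), which patterns the caudal hindbrain and, in neural crest, the pharyngeal glands, had 122 UMIs in the SNI with brush library and 101 in the hot water bath library. That is 11.3 CPM (9.42 to 13.5) and 6.25 CPM (5.09 to 7.59), a log2 ratio of 0.86 (0.47 to 1.254). Hoxb3 (ENSMUSG00000048763, chr11:96323326-96347930, plus strand), which with Hoxa3 keeps Hoxb1 off in the caudal hindbrain, had 273 and 178 UMIs. Its level was 25.4 CPM (22.5 to 28.6) and 11.02 CPM (9.46 to 12.8), a log2 ratio of 1.20 (0.93 to 1.48). Hoxd3 (ENSMUSG00000079277, chr2:74711927-74748442, plus strand), known with Hoxa3 for shaping the first neck vertebrae, had 133 and 146 UMIs. Its level was 12.4 CPM (10.4 to 14.7) and 9.04 CPM (7.63 to 10.6), a log2 ratio of 0.45 (0.10 to 0.80), and its thinned shares, 11.03% (7.55 to 15.4%) and 7.52% (5.20 to 10.5%), overlapped in their intervals.

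**Figure D1:**
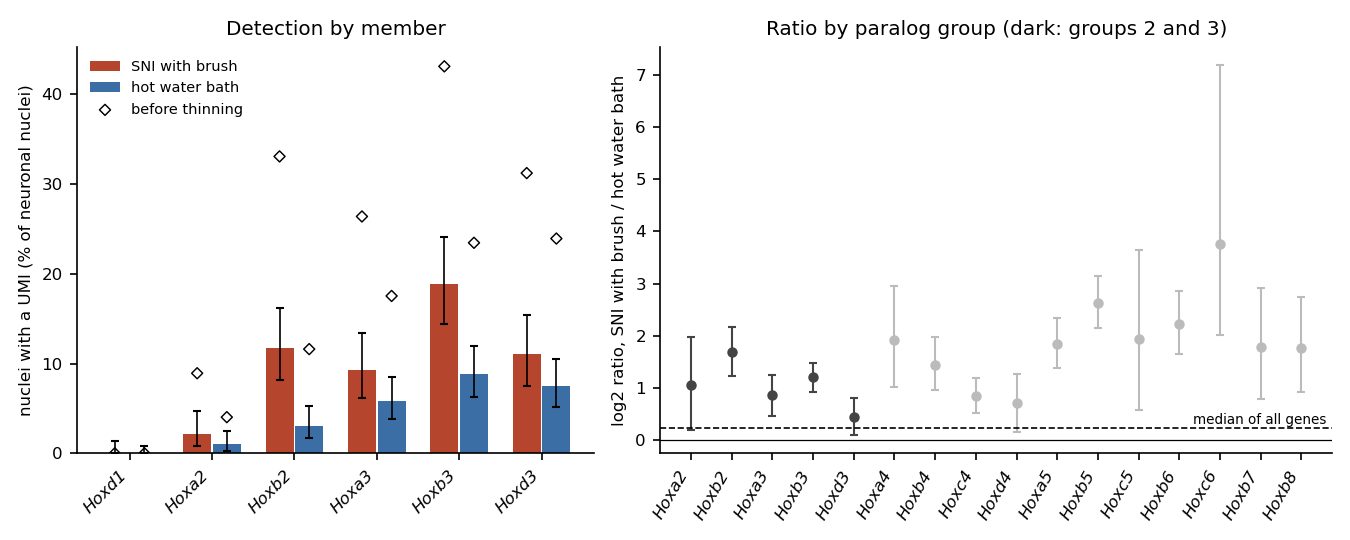
Left, the share of neuronal nuclei with a UMI of each member, with bars for the expected share after thinning to 9000 UMIs, whiskers for exact 95% intervals and diamonds for the share before thinning. Right, the log2 ratio (SNI with brush to hot water bath) and its exact interval for each Hox gene with at least 20 UMIs, groups 2 and 3 dark and groups 4 to 8 grey. Hoxd3 lies lowest at 0.45 and Hoxc6 highest at 3.76, all above the dashed median of all genes, 0.23.

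Levels (CPM) of different genes are compared per exonic kilobase, whereas numbers of UMIs and shares of UMIs elsewhere are not corrected for length. On the per-kilobase scale the order in the SNI with brush library was Hoxb3 (5.97 CPM per kb), Hoxb2 (3.33), Hoxd3 (2.95), Hoxa3 (1.89) and Hoxa2 (1.47). In the hot water bath library it was Hoxb3 (2.59), Hoxd3 (2.16), Hoxa3 (1.04), Hoxb2 (1.03) and Hoxa2 (0.697). On this scale Hoxb2 stood second in the SNI with brush library and level with Hoxa3 in the hot water bath library. Without the division, Hoxd3 (12.4 CPM) stood above Hoxb2 (11.6) in the SNI with brush library, and Hoxa3 (6.25) above Hoxb2 (3.59) in the hot water bath library. The 3' kit reads transcript ends, so counts need not scale with length, and the per-kilobase order rests on the division.

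Gene bodies overlap in these clusters, which may bear on the counts. Hoxd3 shares 17232 bases of the same strand with Hoxd4 in GENCODE vM21, and Hoxa3 overlaps parts of Hoxa4, Hoxa5 and Hoxa6 by 2083, 2834 and 2435 bases. Hoxb2 and Hoxb3 lie opposite Hoxb3os, an antisense transcript. How the counting treated strand and overlaps is not stated, and its effect on the counts of these pairs was not tested.

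Promoter sequences are shown for Hoxa2, the group 2 gene with an entry, and for Hoxa3 and Hoxd3, whose shares of the group 3 transcripts lay far apart in the serotonergic and Gcg nuclei described below. Each run is the 250 bases before the RefSeq start on the gene's strand (GRCm38.p6), 5' to 3', and 5 of the 7 members had an entry. For Hoxa3 and Hoxd3 the RefSeq start differs from the GENCODE positions given above. The Hoxa3 window lies inside the GENCODE gene body, and the Hoxd3 window runs past the GENCODE start of Hoxd3. Capitals mark TGATNNAT, the composite site of Hox and Pbx proteins, and TGACAG, the site of Meis proteins, searched on both strands.
Hoxa2, chr6:52164832-52165081, minus strand: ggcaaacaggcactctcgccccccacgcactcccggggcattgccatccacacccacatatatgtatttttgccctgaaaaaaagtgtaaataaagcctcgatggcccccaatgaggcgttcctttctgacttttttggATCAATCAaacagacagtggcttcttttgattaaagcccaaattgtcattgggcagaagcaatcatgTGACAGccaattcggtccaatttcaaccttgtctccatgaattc
Hoxa3, chr6:52213068-52213317, minus strand: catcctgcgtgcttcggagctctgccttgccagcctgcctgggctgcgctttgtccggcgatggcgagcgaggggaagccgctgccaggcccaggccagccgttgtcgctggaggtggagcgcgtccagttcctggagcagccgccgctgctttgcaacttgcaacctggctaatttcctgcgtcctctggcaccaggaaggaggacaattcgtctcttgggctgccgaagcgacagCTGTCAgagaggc
Hoxd3, chr2:74711743-74711992, plus strand: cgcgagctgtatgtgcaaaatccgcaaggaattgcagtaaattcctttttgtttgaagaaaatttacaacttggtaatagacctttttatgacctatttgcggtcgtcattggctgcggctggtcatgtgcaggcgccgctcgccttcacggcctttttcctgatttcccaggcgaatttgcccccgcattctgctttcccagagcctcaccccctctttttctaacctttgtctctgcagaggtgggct
The Hoxa2 window held both motifs, without overlap, starting 111 and 44 bases before the start. The Hoxa3 window held TGACAG 13 bases before the start, and the Hoxd3 window held neither. The homeodomain motif TAATTA was found in none of the 3 windows. Of 32851 promoter windows of the same length, 7.68% held TGATNNAT, 15.9% held TGACAG and 4.84% held TAATTA. A match is a run of letters and was not tested for binding.

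Summed over the members, the level was 63.3 CPM (58.6 to 68.2) in the SNI with brush library and 31.1 CPM (28.5 to 33.97) in the hot water bath library, a log2 ratio of 1.02 (0.86 to 1.19). Of the 5 members with at least 20 UMIs, 4 passed 1.5-fold higher with SNI with brush and 0 passed 1.5-fold lower. Among all 17530 genes tested, 30.8% passed 1.5-fold higher and 8.4% lower, and the median log2 ratio was 0.23. The members' median was 1.06. Size-factor scaling shifted every ratio by -0.25, and 20.9% of all genes then passed 1.5-fold higher and 14.8% lower, while 4 members still passed higher. Longer genes had lower ratios as a whole: the median was 0.64 among genes in the span class of Hoxa2 and Hoxb2, 0.27 in that of Hoxb3 and 0.11 in that of Hoxa3 and Hoxd3. In these span classes 53.5%, 27.7% and 17.6% of genes passed 1.5-fold higher, so the share beside Hoxa2 and Hoxb2 is above that of all genes.

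Summed, the more caudal Hox genes had a higher ratio than the members. Groups 4 to 8 had 884 UMIs (82.2 CPM) in the SNI with brush library and 433 UMIs (26.8 CPM) in the hot water bath library, a summed log2 ratio of 1.62 (1.45 to 1.79). This interval lies above that of the rostral members. The group 4 gene Hoxc4 had the most UMIs over both libraries summed (168 and 140, log2 ratio 0.85), followed by the group 5 genes Hoxb5 (178 and 43, 2.62) and Hoxa5 (128 and 53, 1.85). Group 2 alone had 1.55 (1.16 to 1.97) and group 3 alone 0.90 (0.71 to 1.09). None of the 16 listed genes of groups 9 to 13 has a row, and they were not analysed here.

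The highest paralog group with a UMI was read in each nucleus before thinning. A nucleus ending at a low group had no more caudal UMI captured and is not shown to lack such transcripts. Groups 1 or 2 were the highest found in 3.35% of SNI with brush nuclei and 4.50% of hot water bath nuclei. Group 3 was the highest group found in 13.8% of SNI with brush nuclei (9.87 to 18.5%) and 20.1% of hot water bath nuclei (16.4 to 24.3%), and these intervals overlapped. No Hox UMI at all was found in 19.0% (14.5 to 24.2%) and 36.7% (32.1 to 41.5%). Groups 6 to 8 were reached in 26.8% (21.6 to 32.5%) and 7.35% (5.05 to 10.3%).

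**Figure D2:**
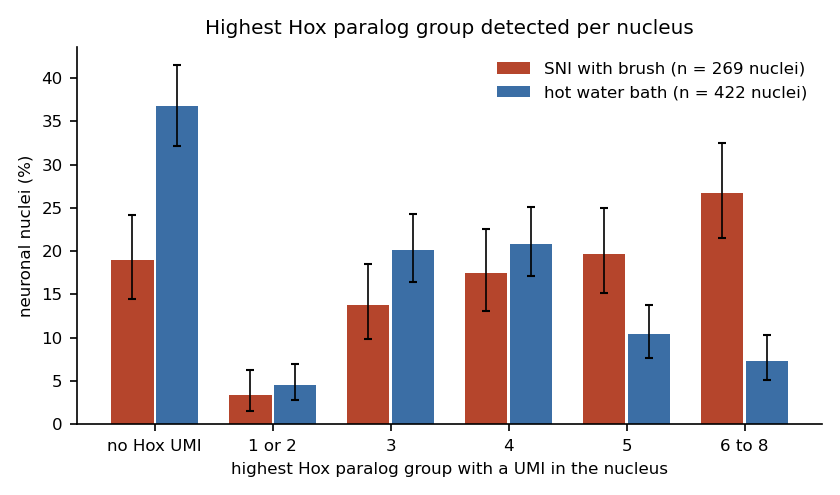
Share of neuronal nuclei by the highest Hox paralog group with a UMI, before thinning, with exact 95% intervals, for SNI with brush (269 nuclei) and hot water bath (422 nuclei). Nuclei reaching groups 6 to 8 make up 26.8% of the SNI with brush library and 7.35% of the hot water bath library, whereas nuclei ending at group 3 make up 13.8% and 20.1%.

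Each nucleus was given a transmitter class from its own transporter and enzyme transcripts. With at least 3 transmitter UMIs, a nucleus was glutamatergic if Slc17a6, Slc17a7 and Slc17a8, which load glutamate into vesicles, gave at least 75% of them, and inhibitory if they gave at most 25%. Inhibitory nuclei with at least 2 UMIs of the glycine transporter Slc6a5 are called glycinergic and the others GABAergic. Nuclei with at least 10 UMIs of Tph2, the serotonin synthesis enzyme, are called serotonergic. The SNI with brush library held 121 glutamatergic, 79 glycinergic, 25 GABAergic and 3 serotonergic nuclei, and the hot water bath library held 251, 20, 40 and 26. In a further 23 and 33 nuclei the signals were mixed, and 18 and 52 had fewer than 3 transmitter UMIs. The classes are ranges: 40 of 248 and 50 of 344 nuclei lay within 10 percentage points of a boundary.

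Of the transmitter classes, glycinergic nuclei had the highest level of rostral Hox transcripts in both libraries, although in the hot water bath library their interval overlapped those of GABAergic and mixed nuclei, and in the SNI with brush library that of the 3 serotonergic nuclei. In the SNI with brush library the members summed to 88.3 CPM (78.1 to 99.5) in glycinergic nuclei and 56.2 CPM (50.2 to 62.8) in glutamatergic nuclei, a log2 ratio of 0.65 (0.41 to 0.89). With hot water bath they summed to 65.2 CPM (48.2 to 86.2) in 20 glycinergic nuclei and 24.99 CPM (22.0 to 28.3) in glutamatergic nuclei, a log2 ratio of 1.40 (0.91 to 1.83). For groups 4 to 8 the same ratio was 0.48 (0.26 to 0.69) with SNI with brush and 2.23 (1.80 to 2.62) with hot water bath. The higher glycinergic level is thus not particular to the rostral genes. The thinned shares of nuclei with a member's UMI were 51.7% in glycinergic and 35.9% in glutamatergic nuclei of the SNI with brush library, with overlapping intervals. They were 42.7% (21.2 to 66.4%) and 18.5% (13.9 to 23.9%) in the hot water bath library, where the intervals also overlapped. With SNI with brush, 4 of 5 members passed 1.5-fold higher in glycinergic nuclei, against 8.42% of all genes. With hot water bath, 4 of the 4 members with enough UMIs passed, against 18.9% of all genes. With both inhibitory classes joined, 3 of 5 members passed in the SNI with brush library (9.87% of all genes) and 3 of 4 in the hot water bath library (11.1%).

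The members did not all weigh equally in that pattern. In the SNI with brush library Hoxd3 had the highest log2 ratio of glycinergic over glutamatergic nuclei at 0.90 (0.33 to 1.47), Hoxb2 had 0.87 (0.30 to 1.45), and Hoxb3 the lowest at 0.37 (-0.02 to 0.75). With hot water bath Hoxb3 had the highest, 1.80 (1.03 to 2.47), and Hoxa3 had 1.70 (0.48 to 2.66). There Hoxb2 rested on 4 glycinergic UMIs, and its 0.94 (-1.17 to 2.29) turned to -0.17 among nuclei with at most 0.5% mitochondrial UMIs. Whether the order of members differs between the libraries was not tested.

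Within classes, the libraries differed by the highest log2 ratio in glutamatergic nuclei, and whether classes differ in this was not tested. There the members summed to 56.2 CPM in the SNI with brush library and 24.99 CPM in the hot water bath library, a log2 ratio of 1.17 (0.93 to 1.41). In glutamatergic nuclei Hoxb2 had 1.61, Hoxb3 1.53, Hoxa2 1.35 and Hoxa3 1.25, whereas Hoxd3 had 0.23 (-0.29 to 0.74). Thus 4 of 5 members passed 1.5-fold higher and 0 lower, against 26.8% and 8.7% of all genes. In glycinergic nuclei the log2 ratio of the sum was 0.43 (-0.01 to 0.91), and 1 of 4 members passed higher and 0 lower, against 24.9% and 7.72% of all genes. Of 2 members with enough UMIs in GABAergic nuclei, 0 passed higher and 1, Hoxa3, lower, against 34.5% and 11.6% of all genes. Over both inhibitory classes 2 of 5 members passed higher and 0 lower, against 31.3% and 8.35% of all genes. Groups 4 to 8 had 1.955 in glutamatergic and 0.21 in glycinergic nuclei.

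GABAergic nuclei need 1 more split, because 14 of the 40 in the hot water bath library carried at least 10 UMIs of Gcg, the glucagon precursor gene that marks a cell group of the caudal medulla. This cutoff was set after the data had been seen. Such nuclei numbered 2 in the SNI with brush library and 28 in the hot water bath library, where 14 were GABAergic by the rule, 14 mixed and 0 glutamatergic. In those 28 nuclei members were found in 25 (89.3%, 71.8 to 97.7%) at 97.3 CPM (78.7 to 119). Hoxa3 and Hoxb3 were each found in 17, Hoxa2 and Hoxd3 each in 7 and Hoxb2 in 5. Hox groups 4 to 8 were found in 27 of them, at 98.3 CPM.

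With the Gcg nuclei counted, GABAergic nuclei held 47.8 CPM of the members in the SNI with brush library and 45.9 CPM in the hot water bath library. Without them the levels were 46.1 CPM (30.6 to 66.6) in 24 nuclei and 24.4 CPM (15.5 to 36.7) in 26 nuclei, a log2 ratio of 0.91 (0.07 to 1.78) against 0.07 with them. The log2 ratio between GABAergic and glutamatergic nuclei of the hot water bath library was 0.89 (0.46 to 1.28) with the Gcg nuclei and -0.00 (-0.72 to 0.59) without them. Of the 25 Hoxa3 UMIs in those GABAergic nuclei, 7 were left without Gcg nuclei. With the Gcg nuclei counted, 0 of 4 members passed 1.5-fold higher in GABAergic than in glutamatergic nuclei of the SNI with brush library, against 23% of all genes, and 2 of 4 did in the hot water bath library, against 12%.

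**Figure D3:**
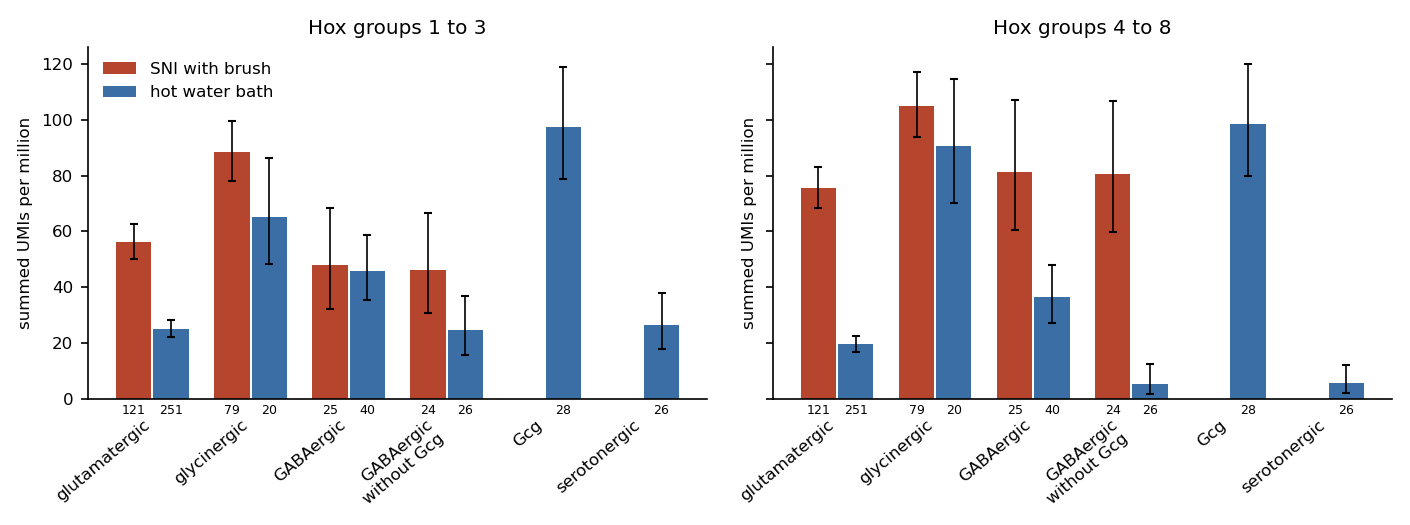
Summed CPM of Hox groups 1 to 3 (left) and 4 to 8 (right) by transmitter class, for SNI with brush and hot water bath, with exact Poisson intervals and the number of nuclei under each bar. Classes with fewer than 20 nuclei in a library are not drawn. Gcg nuclei of the hot water bath library reach 97.3 CPM for groups 1 to 3, and serotonergic nuclei hold 26.5 CPM of groups 1 to 3 and 5.48 CPM of groups 4 to 8.

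Serotonergic nuclei, nearly all from the hot water bath library, differed from glutamatergic nuclei in the levels of single members. With hot water bath, Hoxd3 was found in 15 of 26 serotonergic nuclei (57.7%, 36.9 to 76.6%) and in 24.3% (19.1 to 30.1%) of glutamatergic nuclei. Its level was 20.1 CPM (12.6 to 30.4) against 8.23 CPM (6.56 to 10.2) in glutamatergic nuclei, a log2 ratio of 1.31 (0.54 to 1.98). Glycinergic nuclei of that library held 16.0 CPM (8.25 to 27.9), so this level is not particular to serotonergic nuclei. GABAergic nuclei held 3.59 CPM, mixed nuclei 10.9 CPM and those with few transmitter UMIs 6.70 CPM. Thinned, the Hoxd3 shares were 16.9% (5.19 to 36.6%) in serotonergic and 7.01% (4.18 to 10.9%) in glutamatergic nuclei, with overlapping intervals. Hoxa3 and Hoxa2 had 0 UMIs in serotonergic nuclei, which allows a UMI of each in up to 11.5% of nuclei and sets no limit on expression. In glutamatergic nuclei they were found in 13.9% and 3.19%. The Hoxa2 share lies below that limit, so its 0 shows no difference. For Hoxa3 the exact intervals of the shares, 0 to 13.2% in serotonergic and 9.91 to 18.9% in glutamatergic nuclei, overlapped. The upper limit of its log2 ratio of levels was -0.28. Hoxb3 was found in 3 serotonergic nuclei and Hoxb2 in 4. Groups 4 to 8 had 6 UMIs in 6 of the 26 nuclei, a log2 ratio over glutamatergic nuclei of -1.72 (-3.29 to -0.68). Hoxd4, which overlaps Hoxd3, was found in 2. Serotonergic nuclei were deep, with a median of 40064 UMIs, and glutamatergic nuclei had a median of 38995. The 3 serotonergic nuclei of the SNI with brush library held 7 UMIs of the members, too few for a comparison.

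The share of each gene in the group 3 transcripts puts this side by side, since all 3 genes are read in the same nuclei. These are shares of UMIs with no correction for length, so they compare 1 gene between classes and not the genes with each other. Hoxd3 gave 88.0% of the 25 group 3 UMIs (68.8 to 97.5%) in hot water bath serotonergic nuclei, 27.3% (14.96 to 42.8%) in glycinergic and 39.2% (32.5 to 46.1%) in glutamatergic nuclei. Hoxa3 gave 0% of the serotonergic UMIs, which allows up to 12%, and 39.2% (28.4 to 50.9%) of the 79 UMIs in Gcg nuclei. The glutamatergic make-up differed between the libraries: Hoxb3 gave 55.4% (49.0 to 61.7%) in the SNI with brush library and 40.6% (33.9 to 47.5%) in the hot water bath library, and Hoxd3 gave 21.7% (16.7 to 27.3%) and 39.2%. These intervals did not overlap, but all intervals of these shares treat each UMI as independent. UMIs of a gene often lay in the same nucleus: the 138 Hoxb3 UMIs of SNI with brush glutamatergic nuclei lay in 56 nuclei. The intervals may therefore be too narrow. The difference between the libraries was not tested, and no background of other genes stands beside it. In glycinergic nuclei Hoxd3 gave 26.8% and 27.3%.

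**Figure D4:**
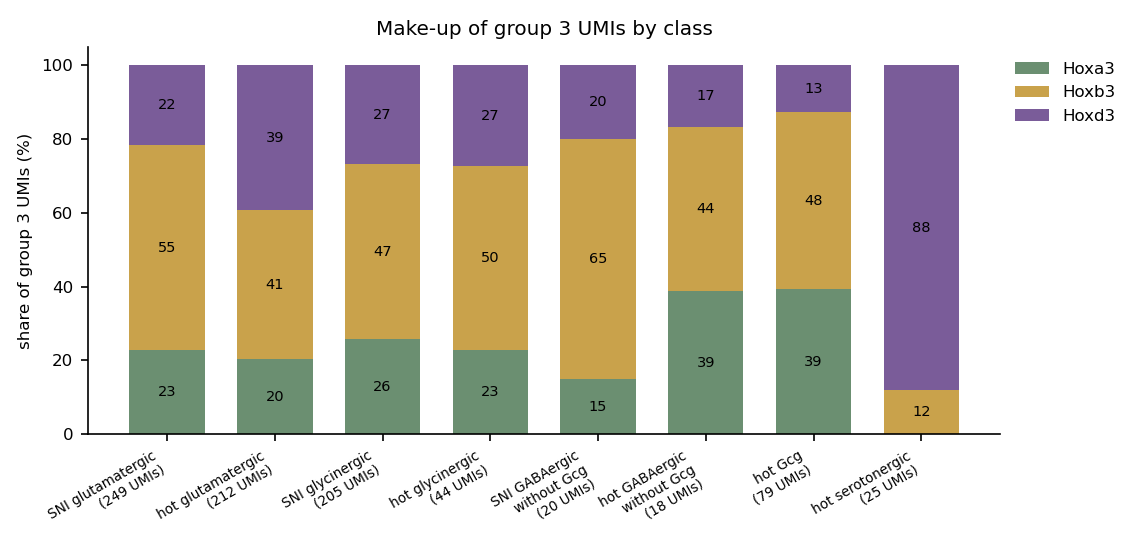
Make-up of the group 3 UMIs, in percent, by class and library, SNI standing for SNI with brush and hot for hot water bath, with the number of UMIs under each bar. Hoxd3 makes up 88.0% in hot water bath serotonergic nuclei and 12.7% in Gcg nuclei, and Hoxa3 makes up 0% and 39.2% there.

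Rostral and caudal Hox genes were found in the same nuclei. After thinning, groups 4 to 8 were detected in 56.4% (46.4 to 66.0%) of SNI with brush nuclei with a member's UMI and in 25.8% (19.3 to 33.3%) of those without. With hot water bath the shares were 33.3% (23.8 to 43.96%) with and 12.97% (9.54 to 17.1%) without. The ratio of the shares was 2.18 in the SNI with brush library and 2.57 in the hot water bath library. Before thinning, 136 of 182 nuclei with a member's UMI (74.7%) and 36 of 87 without (41.4%) carried groups 4 to 8 in the SNI with brush library, and 115 of 215 (53.5%) and 48 of 207 (23.2%) did in the hot water bath library. Nuclei with a member's UMI were deeper, with medians of 34597 and 26648 UMIs with and without in the SNI with brush library, and 39573 and 34474 in the hot water bath library. The thinned ratio stood at 1.92 within glutamatergic and 2.34 within inhibitory nuclei of the SNI with brush library, and at 2.26 and 2.24 in those of the hot water bath library. The intervals of the shares with and without a member's UMI overlapped in 3 of these 4 cases, the inhibitory nuclei of the SNI with brush library being the exception.

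Hoxb3 and Hoxa3 were the members most tied to the caudal groups. In nuclei with and without Hoxb3, groups 4 to 8 were found in 63.8% and 31.8% of the SNI with brush library and in 41.6% and 15.1% of the hot water bath library. For Hoxa3 the shares were 68.4% and 34.7%, and 45.3% and 15.7%. Hoxb2 gave 53.1% and 35.8%, and 25.5% and 17.1%, with overlapping intervals in both libraries. Hoxd3 gave 54.2% and 35.8%, and 30.4% and 16.3%, also with overlapping intervals. Of the 4 members expected in at least 10 thinned nuclei, 3 had a ratio of at least 1.5 in each library, and Hoxb2 lay just below at 1.48 and 1.49. Among all genes with as many nuclei, 0.274% of 12797 passed in the SNI with brush library and 2.51% of 13239 in the hot water bath library. Among genes in about as many nuclei as the members, 0.234% of 2989 and 4.31% of 3362 passed. Counting only partners in other clusters, the ratio was 2.11 for Hoxb3 and 2.09 for Hoxa3 in the SNI with brush library and 2.69 and 2.94 in the hot water bath library, and 2.44 and 2.09, and 4.05 and 3.95, with partners of the same cluster.

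**Figure D5:**
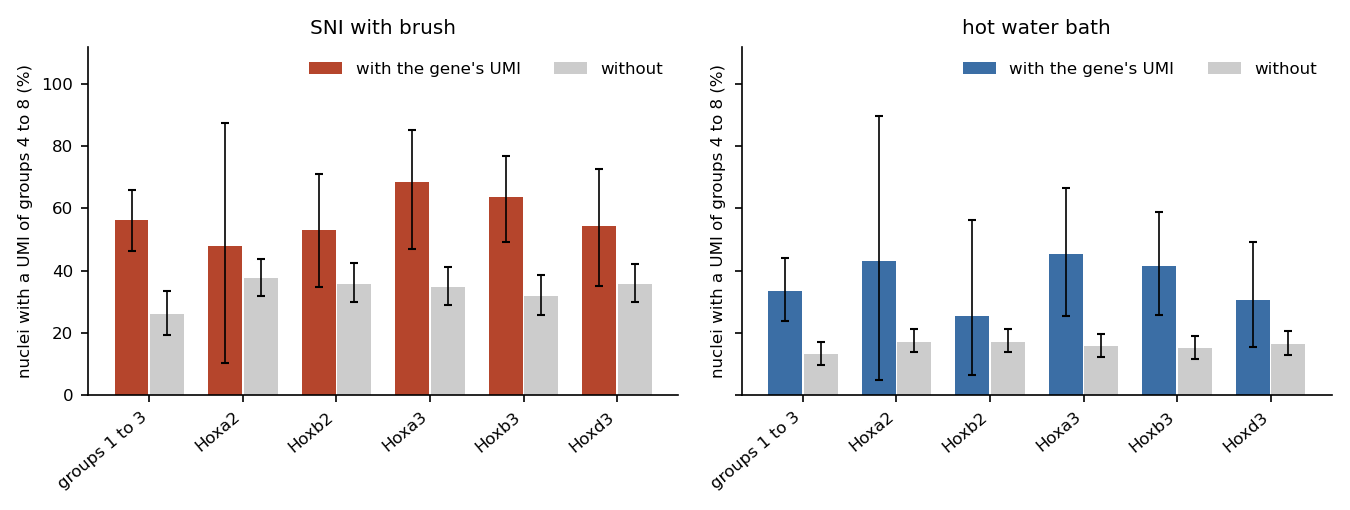
Share of thinned nuclei with a UMI of Hox groups 4 to 8 among nuclei with (colour) and without (grey) a UMI of the gene named below, for SNI with brush (left) and hot water bath (right), with exact 95% intervals. The widest gaps belong to Hoxa3 and Hoxb3, for example 68.4% with and 34.7% without Hoxa3 in the SNI with brush library; Hoxa2 rests on 5.83 and 4.17 expected nuclei.

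Nuclei that reached further caudal groups also held more of the rostral transcripts. In the SNI with brush library the members summed to 30.7 CPM in nuclei without groups 4 to 8, 59.0 CPM where group 4 was the highest, 65.3 CPM with group 5 and 101 CPM (89.9 to 112.3) with groups 6 to 8. The same steps in the hot water bath library gave 18.3, 37.7, 59.0 and 75.7 CPM (60.8 to 93.2). Hoxb3 had the widest range in CPM, with 8.81 and 46.7 CPM at the ends of this order in the SNI with brush library and 5.33 and 30.6 CPM in the hot water bath library. By fold, Hoxa3 rose more than Hoxb3 in both libraries, with 2.56 and 20.2 CPM, and 2.56 and 15.3 CPM. Hoxd3 spanned less than Hoxb3, with 9.66 and 14.5 CPM, and 6.87 and 19.6 CPM. So did Hoxb2, with 8.52 and 15.8 CPM, and 2.98 and 5.96 CPM. Detection of groups 4 to 8 sorted these nuclei, and median depths lay between 29809 and 36048 UMIs and between 35658 and 39918 UMIs.

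The members were also found with each other. Joint detection of each of their 10 pairs was set against the number that the product of their shares gives. After thinning, this ratio ran from 0.956 to 1.74 in the SNI with brush library and from 1.20 to 3.20 in the hot water bath library. It was not computed for pairs of other genes, so no background stands beside it. Pairs with Hoxa2 rested on few nuclei, for example 0.244 against 0.129 with Hoxb2 in the hot water bath library. The thinned ratios of observed to expected had medians of 1.44 in the SNI with brush library and 1.88 in the hot water bath library. The pair of Hoxb3 and Hoxa3 had 8.21 expected joint nuclei after thinning against 4.73 in the SNI with brush library, and 5.31 against 2.16 in the hot water bath library. Hoxb3 was found in 13 of 17 hot water bath nuclei with Hoxa2 (76.5%, 50.1 to 93.2%) and in 21.2% of those without. The Gcg nuclei hold part of these, since 7 of those 17 are Gcg nuclei.

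Transcription factors of the rostral hindbrain were set against the members in the same way. En2, an engrailed gene of the midbrain and hindbrain boundary in the embryo, was found in 2 of 182 SNI with brush nuclei with a member's UMI (1.10%, 0.133 to 3.91%) and in 12 of 87 without (13.8%, 7.34 to 22.9%). Pax5, of the same boundary, was found in 2.20% with and 13.8% without. With hot water bath En2 was found in 0.930% and 2.90% and Pax5 in 4.19% and 5.80%, with overlapping intervals. Pax2, which also marks inhibitory interneurons, was found in 30.2% and 18.4% in the SNI with brush library and 8.37% and 4.35% in the hot water bath library. After thinning, En2 stood at 0.470% with and 2.91% without a member's UMI and Pax5 at 0.923% and 5.20% in the SNI with brush library, with overlapping intervals, and Pax5 at 1.79% and 1.53% in the hot water bath library. The whole list of rostral factors was found in 24.2% and 24.3% of thinned SNI with brush nuclei, and in 7.42% and 5.21% of thinned hot water bath nuclei. Of the 4 listed factors with enough UMIs, 4 passed 1.5-fold higher with SNI with brush, against 30.8% of all genes.

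Lists of genes that work with or on the members had medians nearer to that of all genes. Of 9 cofactors of the Pbx, Meis and Pknox families, 1 passed 1.5-fold higher and 2 passed 1.5-fold lower with SNI with brush, with a median log2 ratio of 0.11. Pbx2 had 1.45 (1.05 to 1.85), whereas the abundant Meis2 had -0.84 (-0.89 to -0.79). Of 11 measured segment and retinoid regulators 4 were higher and 0 lower, with a median of 0.42. Among them the retinaldehyde dehydrogenase Aldh1a1 had 1.63 (1.06 to 2.25) and the retinoic acid receptor Rarb had 0.48 (0.28 to 0.68). Of 14 Polycomb and trithorax genes, which keep Hox genes off or on, 6 were higher and 0 lower, with a median of 0.36. Of these Ring1 had 1.44 and Ezh2 0.82, whereas Kmt2a had -0.16. The background given for the members, 30.8% higher and a median of 0.23, holds for these lists too.

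Noncoding transcripts beside the members were detected in both libraries. Hotairm1, a transcript of the HoxA cluster, had 173 UMIs in the SNI with brush library and 154 in the hot water bath library, a log2 ratio of 0.75 (0.43 to 1.08). Hoxb3os, opposite Hoxb2 and Hoxb3, had 140 and 74 UMIs and 1.502 (1.09 to 1.93), between the values of Hoxb3 and Hoxb2. Hoxaas2, opposite Hoxa3, had 119 and 125 UMIs and 0.52 (0.14 to 0.89). The strand rule of the counting is not stated, and whether reads of these transcripts and of the members were kept apart was not tested.

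The genes whose level per nucleus was most like the summed members, Hox genes aside and ranked by the lower of the correlations in the 2 libraries, were Bcl11a, Lamp5, Tshz2, Tshz3 and Kcnj9. Their Pearson correlations across 269 SNI with brush and 422 hot water bath nuclei were weak, between 0.21 and 0.32 and between 0.19 and 0.35. Nuclei of a library share its depth and its classes, and so these values describe the 11040 candidates ranked and no more. Bcl11a, a zinc finger transcription factor, ranked first with 0.32 and 0.35.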

How the data were processed

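Whole-number UMI counts per gene and nucleus were deposited by the authors in 1 table per library, and these raw counts are the base of every value here. Cell Ranger 5.0, Seurat and mm10 are named, per the submitters' processing notes, and further steps are not stated. The barcode lists hold 850 (SNI with brush) and 723 (hot water bath) barcodes, of which 288 and 425 have a column, so nuclei had been filtered before deposit. Members, gene lists, the class rule and the rule for named genes were chosen with earlier results of these data known. All 7 members are named, with the 3 genes of each list with the most UMIs and up to 3 that passed 1.5-fold with an interval away from 1. The text gives some of these, some are not reported here, and genes in figures or beside a result were chosen after their values were seen.

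Nuclei needed 500 genes, which removed none, and Scrublet doublets (scanpy 1.11.5) and liver-gene nuclei were removed. Shares carry Clopper-Pearson intervals, CPM exact Poisson intervals, and log2 ratios, with 0.5 UMI added to both sums, exact intervals conditional on the summed count. Ratios were computed for all genes with at least 20 UMIs. Thinned shares are hypergeometric expectations over draws of 9000 UMIs per nucleus, and their intervals use the expected counts. A count of 0 is given with a limit of 3 counts. The steps were tested on simulated counts. Scaling alternatives used median-of-ratios size factors and TMM factors (edgeR 4.0.16, R 4.3.3). Gene positions are from GENCODE vM21 (mm10) and promoter sequences from RefSeq. Software was python 3.11.15, numpy 2.4.6, pandas 2.3.3, scipy 1.17.1 and matplotlib 3.10.9.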

Additional observations from a re-analysis of the deposited data

Results flagged for a closer look

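Hoxa3 differed between the libraries in opposite directions in 2 classes, which drew attention to it. In glutamatergic nuclei its log2 ratio, SNI with brush to hot water bath, was 1.25 (0.66 to 1.86), on 57 and 43 UMIs, and in GABAergic nuclei it was -1.71 (-4.28 to -0.19), on 3 and 25 UMIs. The difference between the classes was not tested. Without the Gcg nuclei the GABAergic value was -0.47 (-3.17 to 1.54), on 3 and 7 UMIs.

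The liver-gene nuclei of the SNI with brush library, which enter no comparison above, held 8 UMIs of the members, or 17.5 CPM (7.57 to 34.6). Hoxa3 had 3 of these UMIs, Hoxb2 and Hoxb3 2 each and Hoxd3 1, and Hoxa2 had 0. The neuronal nuclei of the same library held 63.3 CPM.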

How the results depend on the processing

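No paired analysis was possible because each treatment has 1 library, and for the same reason no replicate could be left out. Over 62 results and 461 comparisons with an alternative, 363 stayed within the counting interval, 91 moved outside it and 7 reversed. The count of 4 members at least 1.5-fold higher held with size factors, with TMM factors and without Gcg nuclei. Dropping the minimum of UMIs could not change it, because all 5 detected members already passed that minimum. Within classes the count was 4 of 5 members in glutamatergic and 2 of 5 in inhibitory nuclei. It was 1 of 4 in glycinergic and 0 of 2 in GABAergic nuclei. The causes of the changes below were not tested, beyond what each setting does by construction.

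The share of nuclei with a member's UMI before thinning was 50.6% in SNI with brush and 29.9% in hot water bath when 2 UMIs were needed, and 49.8% and 26.3% without Hoxb3 and Hoxd3. The thinned shares, 39.3% and 21.7%, became 15.5% and 5.58% with 2 UMIs, 21.2% and 9.25% without Hoxb3 and Hoxd3, 6.60% and 3.14% at 1000 UMIs, and 57.5% and 37.4% at 20000 UMIs. The joint detection ratio of the hot water bath library, 2.57, became 6.79 with 2 UMIs.

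The summed log2 ratio of 1.02 became 0.78 with size factors, 0.81 with TMM factors and 1.24 without Gcg nuclei, an alternative chosen after seeing the data. Within classes it was 0.43 in glycinergic, 0.0727 in GABAergic, 0.72 in nuclei with few transmitter UMIs and -0.34 in mixed nuclei, where Hoxa3 had -0.60 and Hoxb3 -0.66, and Hoxa3 had -1.71 in GABAergic nuclei. Without Gcg nuclei the mixed value was 0.69.

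For GABAergic over glutamatergic nuclei, the SNI with brush value of -0.21 became -1.22 with at most 0.5% mitochondrial UMIs and -0.98 when 1 Slc6a5 UMI made a nucleus glycinergic, and the Hoxa3 value of -0.88 became 0.21 when transmitter UMIs had to be of 1 kind. The hot water bath value of 0.89 became -0.00387 without Gcg nuclei, 0.44 with 1 kind only and 1.74 without Hoxb3 and Hoxd3. The glycinergic value of 1.40 became 0.88 with at most 0.5% mitochondrial UMIs, where Hoxb2 was -0.17.

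Depth limits what was seen: a median nucleus held 2 or 1 UMIs of all members, so a nucleus without a UMI is not shown to lack the transcript.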
